A study of Mus musculus with 9 samples.

Results

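The 7 genes described here are Bdnf and Gdnf, which encode secreted neurotrophic ligands, Ngfr and Ntrk2, which encode neurotrophin receptors, and Sox10, S100b and Mbp, which are widely used to follow Schwann cells and myelin. They were chosen by symbol from a table of 22054 genes, each symbol matched 1 row, and all 7 passed the filter on low counts. The RNA came from the callus, the repair tissue that bridges a broken bone, of male C57BL/6J mice with a femoral fracture, and the sample labels give an age of 7 weeks. Callus was taken on day 7 after daily intraperitoneal injections of 200 μl for 1 week. The H-151 group received 750 nmol of H-151, an inhibitor of the innate immune adaptor STING. The SR-717 group received 30 mg/kg of SR-717, an agonist of STING, and the control group received PBS. No uninjured or uninjected tissue enters the comparison, so all 9 libraries share fracture and injection. Each group had 3 libraries, and nothing in the labels says whether a library came from 1 animal or from pooled animals. If they are not separate animals, p-values measure only the spread between these samples.

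Neurotrophins are secreted proteins that keep sensory and sympathetic neurons alive and guide their axons. BDNF signals through the tyrosine kinase receptor encoded by Ntrk2 and, in its precursor form, through the p75 receptor encoded by Ngfr together with sortilin, whereas GDNF signals through the kinase RET with a GFRα co-receptor. Bone, periosteum and the skeletal muscle around it are innervated, and Schwann cells of the injured nerve lose their myelin program and make neurotrophic factors until axons have regrown. None of the 7 genes is restricted to nerve. Ngfr is also made by stromal cells, S100b by chondrocytes and adipocytes, Sox10 by melanocytes, and the Mbp gene also gives rise to golli transcripts in immune cells. Callus RNA mixes cell types, so fewer cells of a type and less RNA per cell cannot be told apart.

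Most markers of Schwann cells were detected in all 9 libraries, some at very few counts. Of 26 Schwann cell and myelin genes, Fa2h and Ugt8a were at 0 in PBS replicate 3. Foxd3 had 1 to 8 counts per library and Pou3f1 2 to 14, while Pmp22 had the most of the list. Which cells made these RNAs was not tested. Pmp22, a peripheral myelin protein, measured between 65.6 and 100.6 CPM (counts relative to the library total, with TMM scaling over the 9 libraries), and Prx, a Schwann cell scaffold protein, between 5.48 and 14.1 CPM. The melanocyte genes Tyr, Dct, Tyrp1 and Mlana, which mark another SOX10-positive lineage, reached at most 2 counts in any library, while Pmel of the same list reached 8 to 22 counts and Mitf, which other cells also express, 129 to 370. The expected counts of a library, which are estimated read counts that need not be whole, summed to between 16987398 and 23272480. On the first principal component, which held 46.6% of the variance of log2 CPM, SR-717 replicate 1 lay at 100.6 and PBS replicate 1 at 38.8, with the other 7 libraries between -28.8 and -4.03. Summed neutrophil markers were 31627 TPM (a share of the library that is scaled for gene length) in SR-717 replicate 1 and at most 10349 TPM elsewhere, and summed chondrocyte markers were 218 TPM in it and at least 906 TPM elsewhere.

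The levels of the 7 genes, compared per length in TPM, fell into a higher pair and a lower 5. Mbp had a median of 19.5 TPM over the 9 libraries (8.29 to 37.2) and S100b one of 15.5 TPM (3.60 to 18.7). The receptors followed, with Ngfr at 2.28 TPM (1.20 to 3.34) and Ntrk2 at 1.85 TPM (0.848 to 3.08). Sox10 stood at 0.883 TPM (0.332 to 1.55), Gdnf at 0.458 TPM (0.409 to 0.984) and Bdnf at 0.353 TPM (0.186 to 0.585). In this order, only S100b and Ngfr had ranges that did not overlap, and the other 5 neighbouring pairs overlapped. Mbp nevertheless exceeded S100b in 8 of 9 libraries, the exception being PBS replicate 3, and Ntrk2 exceeded Sox10 in 9 of 9. Bdnf rested on 8 to 27 counts per library, Gdnf on 14 to 42 and Sox10 on 9 to 45, whereas Mbp rested on 301 to 989. Counting error alone is therefore wide for the ligands and for Sox10.

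**Figure D1:**
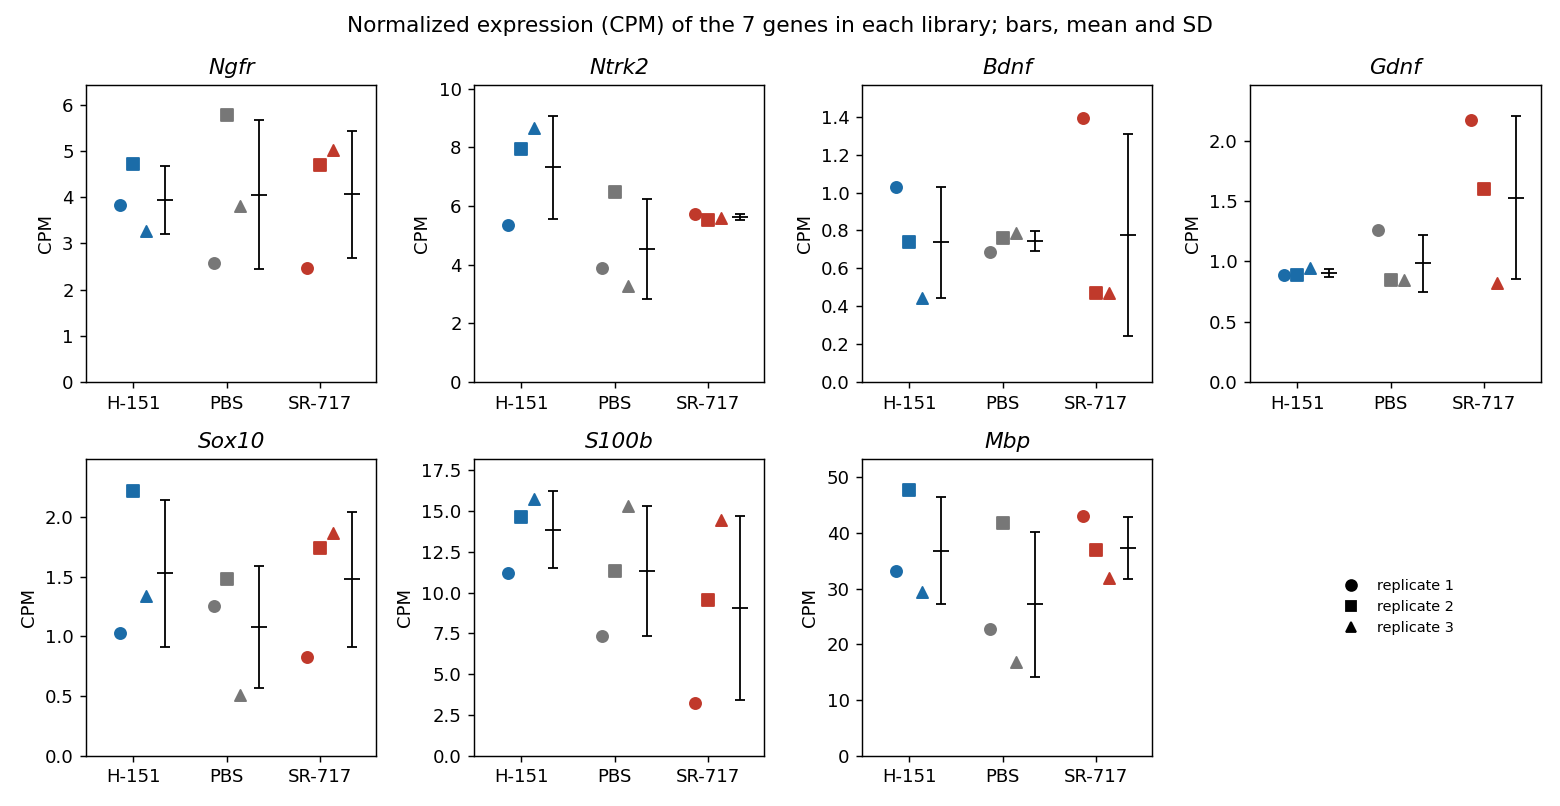
Each panel plots 1 gene in CPM (y axis from 0) for the H-151, PBS and SR-717 groups, with circles, squares and triangles for replicates 1, 2 and 3 and black bars for the mean and SD of 3 libraries. In each of the 7 panels the 3 groups overlap, and S100b (3.20 CPM) and Gdnf (2.17 CPM) in SR-717 replicate 1 are the lowest and highest values of their genes.

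Gdnf, Ntrk2 and S100b had the widest differences between groups on the log2 scale among the 7 genes, and the 250 bases upstream of a RefSeq start site of each (GRCm38.p6, plus strand) are shown for that reason. Gdnf lies at chr15:7810846-7837575 (GRCm38), Ntrk2 at chr13:58806569-59133970 and S100b at chr10:76253853-76261159, and the printed windows are chr15:7809798-7810047, chr13:58806319-58806568 and chr10:76253586-76253835. All 3 windows end before the first base that GENCODE annotates for the gene. Capitals mark matches, on either strand, to ACAAT (a core that SOX factors bind) or TGACG (the core of a cyclic AMP response element).
Gdnf: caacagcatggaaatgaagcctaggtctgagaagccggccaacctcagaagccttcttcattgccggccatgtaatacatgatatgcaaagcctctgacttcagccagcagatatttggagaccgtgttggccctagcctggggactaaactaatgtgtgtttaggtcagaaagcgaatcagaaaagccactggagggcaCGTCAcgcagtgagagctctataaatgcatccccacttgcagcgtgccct
Ntrk2: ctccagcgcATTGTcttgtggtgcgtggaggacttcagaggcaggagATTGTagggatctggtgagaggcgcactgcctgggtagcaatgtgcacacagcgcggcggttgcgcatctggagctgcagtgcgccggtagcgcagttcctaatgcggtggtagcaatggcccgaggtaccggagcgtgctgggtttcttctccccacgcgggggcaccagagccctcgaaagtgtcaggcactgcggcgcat
S100b: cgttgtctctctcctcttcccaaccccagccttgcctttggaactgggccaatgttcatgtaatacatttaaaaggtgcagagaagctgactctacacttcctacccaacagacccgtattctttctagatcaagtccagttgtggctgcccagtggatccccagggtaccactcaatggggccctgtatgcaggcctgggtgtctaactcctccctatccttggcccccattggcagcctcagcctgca
The Gdnf window held 1 match, CGTCA at bases 50 to 46 before the start, which is TGACG on the other strand. The window of another RefSeq start site of Gdnf (chr15:7813477-7813726), which is not printed, held 1 match, ACAAT at bases 223 to 219. The Ntrk2 window held 2 matches, both ATTGT, which is ACAAT on the other strand, at bases 241 to 237 and 203 to 199. The S100b window held none. Of 32851 promoter windows of the same length in the RefSeq table, 27.7% held ACAAT and 17.8% held TGACG. The NF-κB and ISRE consensus motifs, which 1.41% and 2.98% of the windows held, did not occur in the 3 windows shown. A match describes the letters of the window and is not evidence of binding.

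Among the ligands, Bdnf (chr2:109674700-109727007, GRCm38, plus strand) was near the limit of detection and did not order the groups. It measured 1.03, 0.740 and 0.445 CPM in the H-151 libraries, 0.685, 0.761 and 0.787 CPM in the PBS libraries and 1.39, 0.469 and 0.467 CPM in the SR-717 libraries. SR-717 replicate 1 was the highest of the 9, while the other SR-717 libraries lay below all PBS libraries, so the 3 groups overlapped. Gdnf measured 0.883, 0.888 and 0.945 CPM with H-151, 1.26, 0.846 and 0.843 CPM with PBS and 2.17, 1.60 and 0.818 CPM with SR-717. SR-717 replicates 1 and 2 exceeded every H-151 and PBS library, but SR-717 replicate 3 was the lowest of all 9, and the groups overlapped.

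The receptor Ngfr (chr11:95568818-95587735, minus strand) had the narrowest spread of the 7 genes, with a ratio of highest to lowest library of 2.34. It measured 3.83, 4.73 and 3.28 CPM with H-151, 2.57, 5.79 and 3.82 CPM with PBS and 2.48, 4.69 and 5.02 CPM with SR-717. The group means were 3.95 ± 0.734, 4.06 ± 1.62 and 4.06 ± 1.38 CPM (SD, n = 3 each), and both the lowest PBS and the lowest SR-717 library carried replicate number 1. Ntrk2 measured 5.35, 7.94 and 8.67 CPM with H-151, 3.88, 6.47 and 3.26 CPM with PBS and 5.73, 5.54 and 5.61 CPM with SR-717. H-151 replicates 2 and 3 were the highest of the 9 libraries, PBS replicates 1 and 3 the lowest, and the 3 SR-717 libraries lay between with an SD of only 0.0991 CPM around 5.63 CPM. PBS replicate 2 exceeded H-151 replicate 1, so these groups overlapped.

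Of the Schwann cell genes, Sox10, the transcription factor that Schwann cells need at all stages (chr15:79154908-79165240, minus strand), measured 1.03, 2.22 and 1.33 CPM with H-151, 1.26, 1.48 and 0.506 CPM with PBS and 0.826, 1.74 and 1.87 CPM with SR-717. PBS replicate 3 was the lowest library and H-151 replicate 2 the highest, a ratio of 4.39, and the groups overlapped. S100b, a calcium-binding protein, measured 11.2, 14.6 and 15.7 CPM with H-151, 7.37, 11.3 and 15.3 CPM with PBS and 3.20, 9.53 and 14.5 CPM with SR-717. In each group replicate 1 was the lowest and replicate 3 the highest, and the ratio of highest to lowest library, 4.91, was the widest of the 7 genes. Mbp, a major protein of compact myelin, measured 33.3, 47.7 and 29.5 CPM with H-151, 22.8, 41.8 and 16.9 CPM with PBS and 43.0, 37.0 and 31.9 CPM with SR-717. PBS replicates 1 and 3 were the lowest libraries of Mbp, as they were of Ntrk2, while PBS replicate 2 lay within the range of the treated groups.

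The comparison of SR-717 with H-151, which asks how activation and inhibition of STING differ, called none of the 7 genes. Folds were fitted with edgeR's quasi-likelihood test on the 6 libraries of each pair, as log2 of the first group over the second. Called means an unadjusted p under 0.05 and a change of at least 1.5-fold. The study states cutoffs of 0.05 for P and 1.5 for the fold, from the DESeq method. It does not say whether that P was adjusted. By this rule 0 of 7 genes were called, where 0.756% of 14151 tested genes were called, and in 0 of 7 did the groups not overlap, against 5.07% of all tested genes. Gdnf showed the largest difference, 0.75 (SE 0.41, 95% interval -0.24 to 1.73, edgeR unadjusted p = 0.114, adjusted p = 0.996). S100b was at -0.62 (SE 0.51, interval -1.85 to 0.61) and Ntrk2 at -0.39 (SE 0.23, interval -0.95 to 0.18). Ngfr (0.03, SE 0.33), Bdnf (0.06, SE 0.58), Sox10 (-0.06, SE 0.45) and Mbp (0.01, SE 0.22) lay within 0.1 of no change. The interval of Mbp ran from -0.53 to 0.55, that of Sox10 from -1.15 to 1.03 and that of Bdnf, the widest, from -1.34 to 1.46. The data thus do not exclude a difference of 2-fold in Bdnf or Sox10 in either direction. They also do not exclude a 2-fold higher Gdnf or a 2-fold lower S100b with SR-717. Without SR-717 replicate 3, the fold of Gdnf was 1.04 (edgeR unadjusted p = 0.0236), in a fit that called 661 of 14365 genes (4.6%). Without SR-717 replicate 1 it was 0.42, and that of S100b was -0.22.

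SR-717 and PBS differed in none of the 7 genes by the same rule, which called 0.519% of 14070 tested genes, and no gene had groups that did not overlap, against 3.75% of all tested genes. The log2 fold changes were 0.64 for Gdnf (SE 0.45, interval -0.44 to 1.72), 0.06 for Bdnf (SE 0.53) and -0.00 for Ngfr (SE 0.42). Ntrk2 stood at 0.31 (SE 0.32), Mbp at 0.46 (SE 0.35, interval -0.39 to 1.30), Sox10 at 0.44 (SE 0.52) and S100b at -0.32 (SE 0.56). The adjusted p of each of the 7 was 1.00 in edgeR's test. The labels do not say what the replicate numbers stand for. In the fit with the replicate number as a blocking factor, the rule called 443 genes (3.15%) in place of 73 and again none of the 7. Within the numbers S100b was lower with SR-717 in 3 of 3, by log2 ratios of -1.20, -0.25 and -0.08, and its blocked fold was -0.49 (SE 0.29, edgeR unadjusted p = 0.156). Without PBS replicate 2, the fold of Mbp was 0.90 (edgeR unadjusted p = 0.0126), in a fit that called 259 of 14229 genes (1.82%).

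In the comparison of H-151 with PBS, Ntrk2 and Mbp were the genes nearest to a call. The rule called 0 of 7 genes and 0.426% of 14085 tested genes, and groups did not overlap in 0 of 7 genes against 3.86% of all tested genes. Ntrk2 averaged 7.32 ± 1.75 CPM with H-151 and 4.54 ± 1.70 CPM with PBS (SD, n = 3), a log2 fold change of 0.68 (SE 0.34, interval -0.11 to 1.48, edgeR unadjusted p = 0.0814, adjusted p = 1.00). Mbp averaged 36.8 ± 9.64 and 27.2 ± 13.0 CPM, a fold of 0.44 (SE 0.36, interval -0.41 to 1.28). Sox10 stood at 0.49 (SE 0.50), S100b at 0.29 (SE 0.29), Gdnf at -0.11 (SE 0.33), Ngfr at -0.04 (SE 0.35) and Bdnf at -0.01 (SE 0.41).

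Same-numbered libraries of H-151 and PBS deviated together from their group means, and within the numbers Ntrk2 was higher with H-151 in 3 of 3, by log2 ratios of 0.46, 0.30 and 1.41. Mbp was higher in 3 of 3 as well, by 0.54, 0.19 and 0.80, and so was S100b, by 0.61, 0.37 and 0.04. With the number as a block, the fold of Ntrk2 was 0.71 (SE 0.29, edgeR unadjusted p = 0.0494) and that of Mbp 0.51 (SE 0.15, edgeR unadjusted p = 0.0179), and both had an adjusted p of 1. An unadjusted p under 0.05 was reached by 3.06% of all tested genes in that fit. Ntrk2 passed the 1.5-fold threshold there and Mbp did not, and 262 genes (1.86%) did in place of 60. Without PBS replicate 2, Ntrk2 reached 1.04 and Mbp 0.90 (edgeR unadjusted p = 0.0141 and 0.0172), in a fit that called 698 of 14229 genes (4.91%). No other library, when left out, gave a call among the 7 genes in this comparison.

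**Figure D2:**
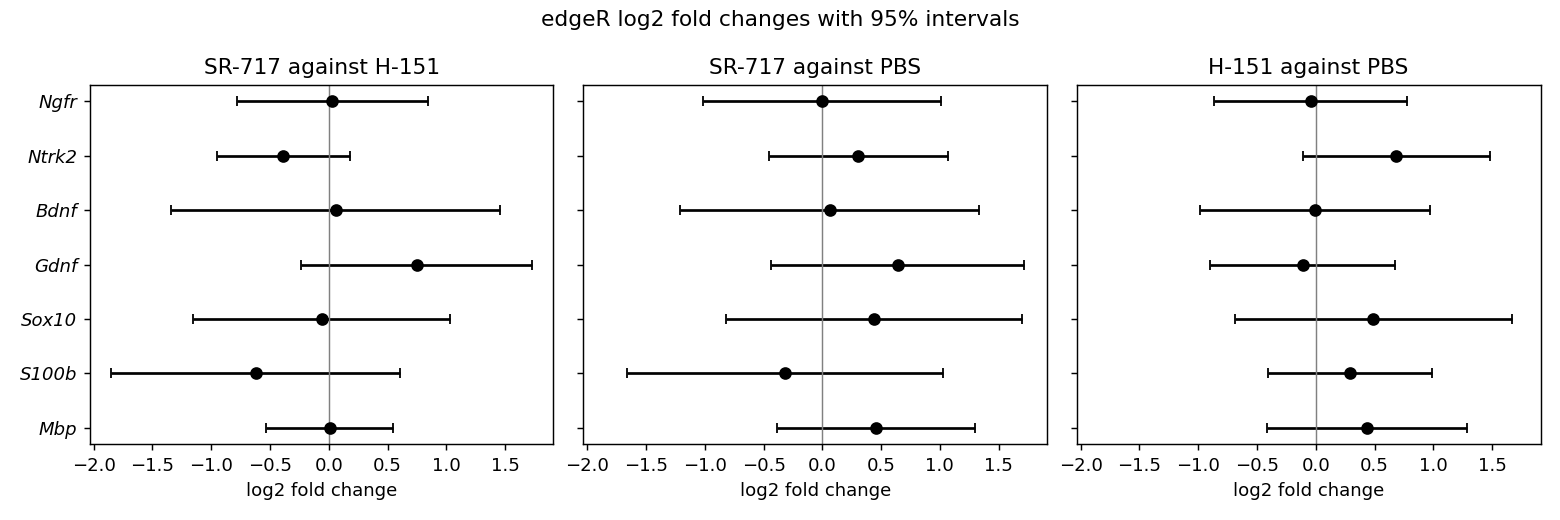
The 3 panels plot, for each of the 7 genes, the edgeR log2 fold change (x axis, first group over second) as a point with its 95% interval as a bar. All 21 intervals, from the unpaired fits, include 0, and in the first panel the bar of Bdnf is the widest, from -1.34 to 1.46. With the replicate number as a block (not plotted), those of Ntrk2 (0.0027 to 1.42) and Mbp (0.124 to 0.888) between H-151 and PBS do not.

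The pathway genes around these members gave few calls. Of 14 neurotrophins and neurotrophin receptors 11 were tested, and 0 were called in each comparison, with median log2 fold changes of -0.00 (SR-717 against H-151), -0.00 (SR-717 against PBS) and 0.01 (H-151 against PBS), where all tested genes had medians of 0.02, 0.01 and -0.02. Among them, Ntf5, another ligand of the Ntrk2 receptor, measured 0.562 to 1.75 CPM, and Ntf3 0.114 to 1.17 CPM. Sort1, which encodes sortilin, measured 59.4 to 108 CPM, and Ntrk3, the receptor of NT-3, 0.292 to 0.937 CPM. Of 10 genes of the GDNF family, 9 were tested in both SR-717 comparisons and 8 in the other, again with 0 called. Over all tested genes the rule called 0.756%, 0.519% and 0.426% in the same order of comparisons. Ret measured 3.82 to 15.6 CPM, Gfra1 10.7 to 27.7 CPM, Gfra2, the co-receptor of neurturin, 9.44 to 22.5 CPM and Gfra3 0.155 to 0.704 CPM. The ligands Nrtn and Artn measured 0.620 to 3.88 and 0.674 to 4.60 CPM, and SR-717 replicate 1 had the lowest Nrtn and the highest Artn. With the replicate number as a block, Nrtn was at -0.81 (SE 0.29, edgeR unadjusted p = 0.0383, adjusted p = 0.999) between SR-717 and PBS, in the fit that called 3.15% of all tested genes. Gfra2 was called in fits without 1 library, at -0.73 between SR-717 and H-151 without H-151 replicate 3 and at -0.59 between SR-717 and PBS without PBS replicate 3. These fits called 1.06% and 0.661% of all tested genes.

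Of 26 Schwann cell and myelin genes, which include Sox10, S100b and Mbp, 22 were tested between SR-717 and H-151. Of these, 7 had a fold above 0 where 53.4% of all tested genes did. The rule called 0 of them and 0.756% of all tested genes, and their median log2 fold change was -0.08. Between SR-717 and PBS 21 were tested, and 14 had a fold above 0 where 52.2% of all tested genes did. The rule called 1 of them and 0.519% of all tested genes, and their median was 0.14. Between H-151 and PBS 23 were tested, and 20 had a fold above 0 where 44.2% of all tested genes did. The rule called 1 of them and 0.426% of all tested genes, and their median was 0.24. In that comparison 10 of 10 skeletal muscle genes (median 0.39) and 7 of 7 tested adipocyte genes (median 1.10) also had a fold above 0, and their part in the result was not tested. The gene called in both was Egr2, a transcription factor that drives myelination and is also used by myeloid cells and T cells. It measured 8.04, 8.58 and 10.3 CPM with H-151, 6.28, 5.12 and 4.55 CPM with PBS and 7.95, 10.3 and 7.42 CPM with SR-717. All PBS libraries lay below all treated libraries, and both contrasts use the same PBS libraries. Groups did not overlap in 3.86% of all tested genes between H-151 and PBS and in 3.75% between SR-717 and PBS. The folds of Egr2 were 0.75 (SE 0.22, edgeR unadjusted p = 0.0112) for H-151 and 0.69 (SE 0.25, edgeR unadjusted p = 0.0310) for SR-717, each with an adjusted p of 1.00. Without PBS replicate 3, PBS replicate 2 or SR-717 replicate 2, Egr2 was not called between SR-717 and PBS, and between H-151 and PBS it was called whichever of the 6 libraries was left out.

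Apart from Egr2, genes of the list were called only under a replicate block or without 1 library. The H-151 and PBS groups of Pmp22 did not overlap, at 94.0, 97.4 and 83.8 CPM against 80.9, 83.7 and 65.6 CPM. Its fold of 0.26 (SE 0.14) was not called, and groups did not overlap in 3.86% of all tested genes. Mag (-0.04), Prx (0.18), Erbb3, the neuregulin receptor subunit of Schwann cells (0.18), and Cdh19 (0.31) had SEs of 0.25, 0.30, 0.44 and 0.65 in the same contrast. PBS replicate 2 had the highest Mbp and Sox10 of its group. Without it, 8 genes of the list were called between H-151 and PBS, in a fit that called 698 of 14229 genes (4.91%). The 8 genes included Mbp, Mal, Drp2, Gfap and Egr2, which were higher with H-151, and Fabp7, which was lower. In PBS replicates 1 and 3, Gfap had only 5 and 1 counts and Mal 8 and 3. Between SR-717 and PBS the calls without that library included Mbp (0.90), in a fit that called 1.82% of all tested genes. Ncmap, a myelin-associated protein, was at -1.20 between SR-717 and PBS with the replicate number as a block, where 3.15% of all tested genes were called. It was lowest in SR-717 replicate 1 (0.465 CPM) and PBS replicate 1 (1.71 CPM). Summed chondrocyte genes were also lowest there (218 and 906 TPM), and a link was not tested. Gldn was at 1.01 between H-151 and PBS without PBS replicate 3, where 1.07% were called. That library had 7.76 CPM of Gldn, and with it the means went the other way, 2.44 CPM with H-151 and 3.39 CPM with PBS. Between SR-717 and H-151, Gfap was at -2.12 and Cdh19 at -2.03 without SR-717 replicate 2, where 2.69% were called. These rested on 3 and 13 counts of Gfap and 5 and 3 of Cdh19 in SR-717 replicates 1 and 3. The library left out had 35 and 19. Mal was at -1.32 without SR-717 replicate 3, where 4.6% were called, and rested on 10 and 9 counts in SR-717 replicates 1 and 2.

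Library composition moved with several of the 7 genes, among them Sox10, S100b and Mbp. Over the 9 libraries, log2 CPM of Sox10 and the log2 summed TPM of 10 skeletal muscle genes had a Pearson r of 0.96, and of 0.95 over the 8 libraries without SR-717 replicate 1. The summed muscle genes ranged from 18948 to 29236 TPM with H-151, from 6723 to 29823 TPM with PBS and from 12881 to 37367 TPM with SR-717. PBS replicate 3 was the lowest for both Sox10 and muscle. With the rest of the Schwann cell list, members left out, Sox10 had an r of 0.71 (0.66 over 8 libraries), and with the summed melanocyte list one of -0.90 (-0.88 over 8 libraries). Mitf, which other cells also express, made up 9.27 of the 9.82 TPM at which that sum was highest, in PBS replicate 3, while Tyr, Dct and Tyrp1 were at or near 0.

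S100b had an r of -0.95 with 8 macrophage genes (-0.89 over 8 libraries) and of 0.83 with 12 chondrocyte genes, which was 0.40 over 8 libraries and thus rested on SR-717 replicate 1. The summed chondrocyte genes ranged from 2520 to 5964 TPM with H-151, from 906 to 8223 TPM with PBS and from 218 to 4128 TPM with SR-717, and the summed macrophage genes from 1275 to 1913, from 1222 to 2466 and from 1688 to 3488 TPM. None of the 12 chondrocyte or 8 macrophage genes was at 0 in any library. Ngfr had an r of 0.83 with the chondrocyte genes (0.78 over 8), Ntrk2 one of 0.76 with the adipocyte genes (0.87 over 8), and Mbp one of 0.61 with the Schwann cell list (0.87 over 8). Mbp also had an r of 0.63 with the muscle genes (0.82 over 8) and of -0.75 with the sum that Mitf dominates (-0.96 over 8). With the neutrophil genes Mbp had an r of 0.69 (0.67 over 8), over 9 libraries above its r with the Schwann cell list or muscle. All points share libraries, depth and the constraint that CPM and TPM are shares of a whole, and the 9 libraries come from 3 treatments. The part of tissue composition in the differences between groups was not tested.

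**Figure D3:**
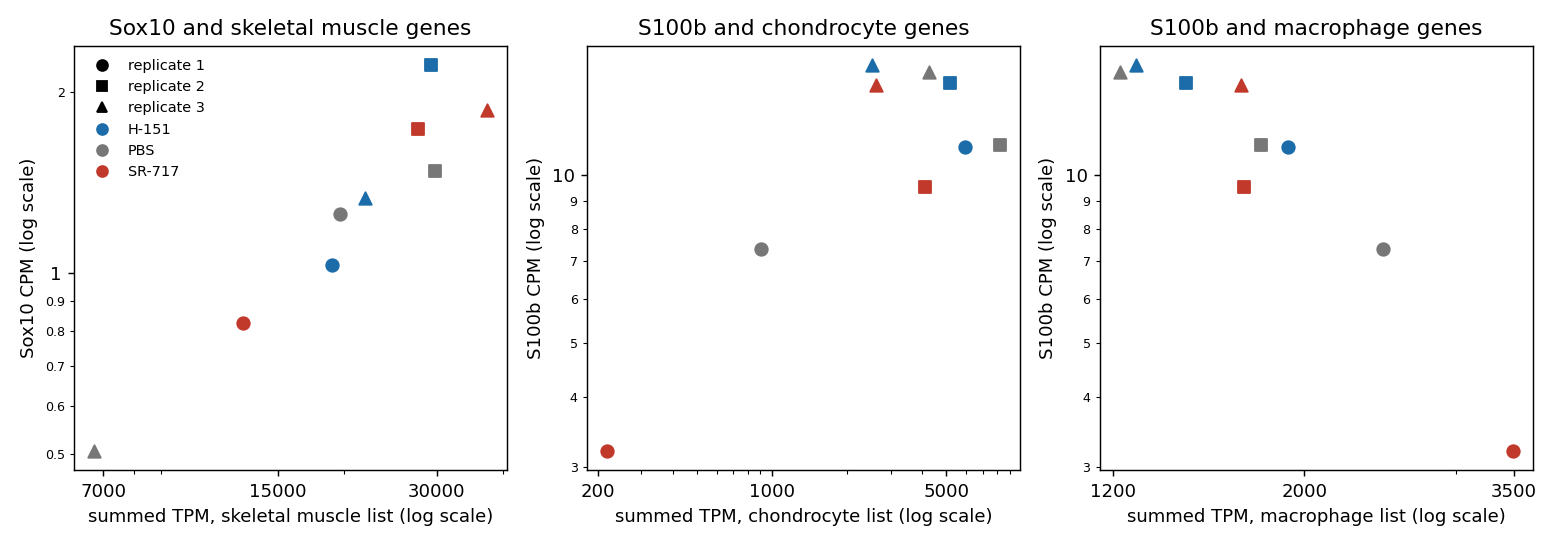
Each point is 1 of 9 libraries, with the CPM of Sox10 or S100b on a log y axis and the summed TPM of a marker list on a log x axis, coloured by group and shaped by replicate number. Sox10 lies low where muscle genes are low (PBS replicate 3), and S100b lies lowest in SR-717 replicate 1, where chondrocyte genes are lowest and macrophage genes highest.

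Among the 7 genes themselves, the 9 libraries gave r = -0.89 between Gdnf and S100b (-0.71 over 8 libraries) and 0.75 between Ntrk2 and Mbp (0.79 over 8). Mbp and Sox10 had an r of 0.63, which was 0.84 over 8 libraries, and Ngfr and S100b one of 0.63, which was 0.34 over 8. The genes whose log2 CPM followed each member most closely, out of 14294, included Pmf1, Jup and Fbln7 for Ngfr (r from 0.97 to 0.98), Med13l and Shkbp1 for Bdnf (0.93 to 0.96), and Hyal3, Pln and Nme6 for Ntrk2 (0.94 to 0.95). For Gdnf they were Zfp800, Hps3 and Trnt1 (0.96 to 0.97), for Mbp Gstm1, Pck1 and Blvrb (0.95 to 0.97), for Sox10 Lpin1, Plekhb1 and Lrrn1 (0.98 each), and for S100b Gstz1, Amigo3 and Stk25 (0.98 each). These are the highest of 14294 values for each gene over only 9 libraries, and none of the genes named belongs to the neurotrophin, GDNF or Schwann cell lists.

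For Mbp and Ntrk2, the counts that stood behind 1 unit of TPM were not the same in all libraries. Counts per TPM follow the transcript length that the authors' quantification assigned to the gene, once the factor common to a library is removed. For Ngfr, Gdnf and S100b, which have 1 transcript each in GENCODE release M21, the highest library exceeded the lowest by a ratio of 1.00. For Mbp, which has 16 annotated transcripts, 14 of them coding and between 354 and 4797 bases long, the value ran from 0.782 of the gene's mean in H-151 replicate 2 to 1.25 in SR-717 replicate 1. That ratio of 1.60 was above those of 97.6% of 10124 genes, whose median ratio was 1.03.

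Ntrk2 encodes full-length receptors and truncated ones without the kinase domain. It has 10 transcripts, of which 7 are coding and between 2284 and 8744 bases long. Its counts per TPM ran from 0.804 in H-151 replicate 2 to 1.14 in SR-717 replicate 2, a ratio of 1.41 that exceeded those of 94.98% of the genes. Sox10 had a ratio of 1.17 and Bdnf, despite 11 transcripts, one of 1.07. On the TPM scale Mbp averaged 25.3 ± 10.3 with H-151, 17.4 ± 12.9 with PBS and 19.8 ± 1.54 with SR-717 (SD, n = 3 each). The difference of SR-717 and H-151 in Mbp was 0.01 from counts and -0.28 from log2(TPM + 0.5), with limma adjusted p of 1.00. Which transcripts were present cannot be read from sums per gene.

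**Figure D4:**
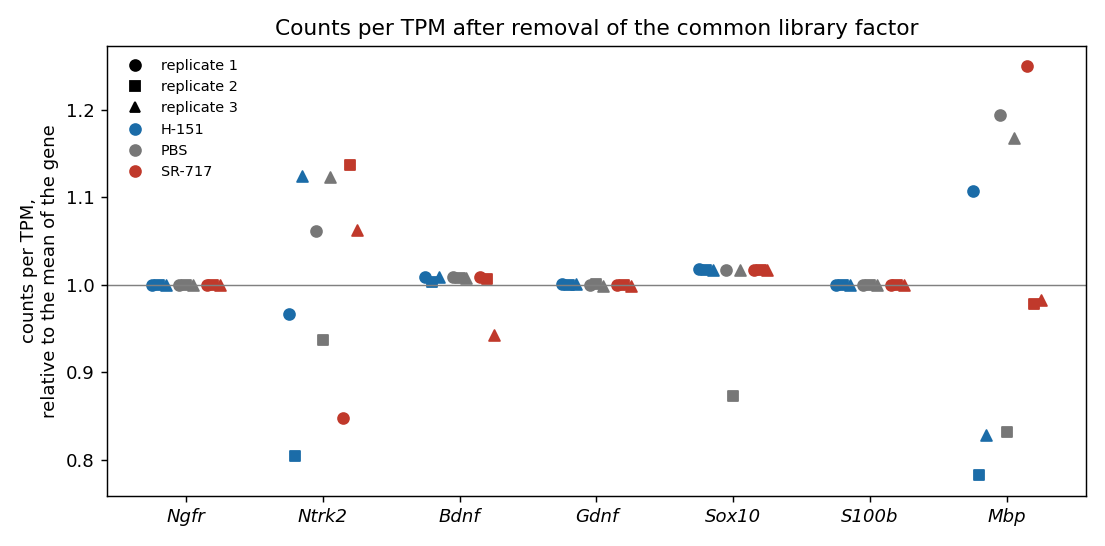
For each of the 7 genes, the y axis gives counts per TPM in each library relative to the mean of the gene (grey line at 1), after removal of the factor common to the library; colours are groups and shapes are replicate numbers. Ngfr, Gdnf and S100b lie on the line, and Mbp spreads from 0.782 to 1.25.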

How the data were processed

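Callus mRNA of 9 libraries, 3 each for H-151, PBS and SR-717, was sequenced for the authors by a service company, and libraries were assigned to groups by their labels. The deposited expected counts are not normalized, and 8.91% were not whole, so they were rounded before testing. They also deposited TPM values for each gene and library. The submitters' processing notes name the genome build mm10, and the aligner, the counting program and its use of strand are not given in the sources used here, so antisense and overlapping genes are uncertain.

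edgeR 4.0.16 in R 4.3.3 was used for each pair of groups with filterByExpr (minimum count 10, minimum total 15), TMM, glmQLFit and glmQLFTest, two-sided, with Benjamini-Hochberg adjustment over all tested genes. SEs were derived from the F statistic and 95% intervals from its degrees of freedom. DESeq2 1.42.0 and limma 3.58.1, the latter on log2(TPM + 0.5) and added after the data were seen, were alternatives, as were DESeq2 size factors, no filter, all 9 libraries in 1 fit, a replicate block and leaving out each library. Scripts were tested on simulated data.

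The 7 genes, the marker lists and the rules for naming genes were chosen with earlier results of these data known. The rule names the 7 genes, 20 further pathway genes, list genes past the thresholds and the 3 genes most correlated with each of the 7, of which some are not reported here. Genes named for calls in alternative fits were chosen after their values were seen. Pathway genes not tested because of low counts are given by values or left out. The replicate numbers come from the labels, which do not say what they stand for. Deviations of same-numbered libraries from the group means correlated at 0.14 to 0.67 between SR-717 and PBS and at 0.31 to 0.51 between H-151 and PBS, all above 0.1. The main fits, with their calls, SEs and intervals, were unpaired. For these comparisons a fit with the number as a block is given beside them as an alternative. However, SR-717 replicate 3 correlated more with PBS replicate 2 (0.37) than with its own number (0.14). Positions are from GENCODE and promoters from RefSeq, which held 5 of the 7 genes.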

Additional observations from a re-analysis of the deposited data

How the results depend on the processing

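At an adjusted p under 0.05, edgeR called 0 genes in each comparison, with 146 (SR-717 against H-151), 97 (SR-717 against PBS) and 91 (H-151 against PBS) at an unadjusted p under 0.05, and DESeq2's Wald test called 1 (Myh8, a developmental muscle myosin, named after its value was seen), 0 and 0. At an unadjusted p under 0.05 and 1.5-fold, the counts of 107, 73 and 60 genes became 209 (SR-717 against H-151) and 138 (SR-717 against PBS) by DESeq2's Wald test, 223, 194 and 127 without a filter, and 171 (SR-717 against H-151) and 176 (SR-717 against PBS) with all 9 libraries in 1 fit. With the replicate block they became 443 (SR-717 against PBS) and 262 (H-151 against PBS), and 143 between SR-717 and H-151, where same-numbered libraries correlated at 0.35, 0.073 and 0.082 and not every library correlated best with its own number. Leaving out 1 library gave 64 to 661, 95 to 319 and 43 to 698 genes. Of the 7 genes, 0 were called in each comparison. The replicate block gave 1 between H-151 and PBS (Ntrk2) and changed no other call among the 7, and leaving out 1 library gave 0 to 1, 0 to 1 and 0 to 2.

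Of 126 alternative log2 fold changes of the 7 genes with all libraries, 110 kept their sign and side of the threshold, 14 reversed, and 2 (Ntrk2 and Mbp between H-151 and PBS with the block) passed an unadjusted p under 0.05. Those that reversed started within 0.1 of 0. Between SR-717 and H-151 the replicate block gave -0.014 for Ngfr and -0.032 for Bdnf, and limma on log2 TPM gave -0.059 for Ngfr, -0.033 for Bdnf and -0.28 for Mbp. Between SR-717 and PBS, Ngfr was at 0.0016 with DESeq2 size factors, 0.0025 without a filter and 0.010 with the block, and Bdnf at -0.092 with the block and -0.047 by limma. Between H-151 and PBS, Bdnf was at 0.0042 with DESeq2 size factors and by the Wald test and at 0.0030 without a filter, and Ngfr at 0.0092 with the block. The cause of these reversals was not tested.

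Leaving out 1 library turned the sign at least once in 10 of 21 folds. Between SR-717 and H-151 these ranged from -0.67 to 0.38 for Bdnf, from -0.13 to 0.24 for Mbp, from -0.14 to 0.29 for Ngfr and from -0.28 to 0.31 for Sox10. Between SR-717 and PBS they ranged from -0.24 to 0.35 for Ngfr, from -0.66 to 0.32 for Bdnf and from -0.83 to 0.089 for S100b, and between H-151 and PBS from -0.28 to 0.32 for Ngfr, from -0.32 to 0.25 for Bdnf and from -0.20 to 0.11 for Gdnf. Between SR-717 and H-151, Ntrk2 was at -0.57 without H-151 replicate 1 (edgeR unadjusted p = 0.0482). Counts of 8 to 45 per library limit Bdnf, Gdnf and Sox10.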

Other observations

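Of 14 genes of an axon and neuron list, 6 were tested between H-151 and PBS. Of these, 3 had a fold above 0, where 44.2% of all tested genes did, and their median log2 fold change was 0.23. The list thus did not fall as a whole with H-151. Tubb3, a neuronal tubulin of axons that other cells also make, was the only 1 called, where 0.426% of all tested genes were. It measured 9.32, 10.5 and 12.7 CPM with H-151, 16.4, 18.5 and 16.6 CPM with PBS and 10.7, 11.6 and 12.7 CPM with SR-717, so all PBS libraries lay above all treated ones. Groups did not overlap in 3.86% of all tested genes between H-151 and PBS and in 3.75% between SR-717 and PBS. The log2 fold change of Tubb3 was -0.67 (SE 0.18, edgeR unadjusted p = 0.00787) for H-151 and -0.55 (SE 0.17, edgeR unadjusted p = 0.0162) for SR-717, the latter under 1.5-fold. Both contrasts share the PBS libraries, and the smallest edgeR adjusted p of the list was 0.999901 for H-151 and 0.999877 for SR-717. Of the same list, Uchl1 measured 7.08 to 15.9 CPM and Stmn2 2.27 to 10.6 CPM, and neither was called in any comparison, while Nefl reached 0 to 13 and Nefm 0 to 6 counts per library. Car3, carbonic anhydrase 3 of adipocytes and slow muscle, was called between SR-717 and PBS at 0.59 (SE 0.22, edgeR unadjusted p = 0.0325), from 203, 245 and 204 CPM against 111, 145 and 179 CPM. It was the only 1 called of 7 tested adipocyte genes, where 0.519% of all tested genes were. No gene of that list had an edgeR adjusted p below 0.999877.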
